A study of Temnothorax americanus and Temnothorax ambiguus and Temnothorax curvispinosus with 48 samples.

Results

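Workers of the slavemaking ant Temnothorax duloticus were compared between their raiding and their non-raiding phenotype. The comparison rests on 8 of the 48 RNA sequencing libraries of the study, 4 raiding and 4 non-raiding, chosen by the sample labels as all libraries of this species. The whole study sampled 3 slavemaking species and 3 host species of Temnothorax. Raiding workers were taken as they fought outside a nest of the host T. curvispinosus, and non-raiding workers came from autumn, when raiding was over, under the same light and temperature. The labels call the non-raiding libraries before raid, while the methods place their sampling after the raiding season. Season and phenotype therefore cannot be told apart. Each library pooled the whole bodies of 6 workers, 2 from each of 3 colonies, and the same colonies were pooled in both phenotypes. No treatment, transgene or mutation was involved, and worker age is not given in the labels. The hour of collection varied, since raids cannot be timed, and p-values measure the spread between these pooled libraries.

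Slavemaking ants steal brood from host nests, and the stolen host workers then feed and tend the mixed colony. The slavemaker workers themselves do little in the nest. In ants the fat body, an organ with the roles of liver and adipose tissue, stores lipid and makes yolk proteins, while specialised cells convert fatty acids into the hydrocarbons that coat the cuticle and carry colony odour. Fatty acid synthase builds the fatty acid chains for both. Elongases lengthen the chains, desaturases place double bonds in them, and fatty acyl-CoA reductases turn them into alcohols on the way to wax and hydrocarbons.

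Counts of reads on 57994 assembled contigs were available, with 19.0 to 28.6-million counts in raiding libraries and 21.5 to 49.1-million in non-raiding libraries. Spearman correlations of log2 CPM (counts-per-million) were 0.857 to 0.878 among raiding libraries, 0.870 to 0.893 among non-raiding libraries and 0.85 to 0.877 between phenotypes. The first principal component (19.9% of the variance) had all raiding libraries on one side, and the second (18.8%) set raiding library DR_424, the shallowest, apart from the other raiders. At the ends of the first component lay BR_417 (-135.6) and DR_424 (101.5), each the shallowest library of its phenotype. In the table of counts the columns of raiding libraries start with BR, the prefix of non-raiding titles, and they were matched to the labels by library number. Of the contigs, 38305 are named for a joint assembly and the rest for 1 of 4 libraries, with letter tags that no source explains. The methods describe a first step that assembled libraries in 4 pairs, so a contig named for 1 library may come from a pair. Proteins are named by the best match in a deposited table of 820 contigs, of which 218 have a match that names a protein, and the table holds contigs the study called on these same libraries. The direction in which named contigs moved is therefore not independent evidence, and where several contigs carry the same name, reads of a single gene may be divided among them, which makes the value of any one of them uncertain. In whole bodies, fewer cells of a type and less RNA per cell cannot be told apart. Values are given in the order of library numbers, DR_421 to DR_424 for raiding and BR_417 to BR_420 for non-raiding libraries, a positive log2 fold change means higher in raiders, and an adjusted p is that of edgeR.

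Of the 41591 contigs with enough counts for a test, 151 were differentially expressed (edgeR quasi-likelihood test, Benjamini-Hochberg adjusted p under 0.05), which is 0.363% of those tested. Lower expression during raiding was the more common direction, with 118 contigs (0.284%) against 33 that were higher (0.0793%), so that 21.9% of the changed contigs were higher in raiders (95% Wilson interval 16 to 29.1%, counting error only). The interval takes contigs as independent, although several carry the same protein name. Log2 fold changes lay between -9.57 and -0.476 among the lower contigs (median -1.37) and between 0.464 and 7.72 among the higher ones (median 1.07), while the median over all tested contigs was 0.00521. The lower contigs summed to 6852 ± 467 CPM in raiding libraries and 16237 ± 485 CPM in non-raiding libraries (SD, n = 4 each), and the higher contigs to 9729 ± 995 CPM in raiding libraries and 5520 ± 250 CPM in non-raiding libraries. The phenotypes did not overlap in CPM for any of the 151 contigs, beside 9.00% of all tested contigs without overlap (4.03% higher and 4.97% lower in raiders). At an unadjusted p under 0.05 stood 12.5% of all tested contigs, and other tests called more, 2.25% by the edgeR likelihood ratio test and 4.60% by DESeq2. Of the contigs they called, 30.7% and 41.9% were higher in raiders, above the interval. The quasi-likelihood fit treated the 8 libraries as unpaired, since the sources do not say which of them share colonies. A replicate block by order of library number, chosen after seeing the data, gave 55 contigs, 44 of them among the 151. The count was also sensitive to single libraries. It was 45 without DR_421, 80 without DR_422, 75 without DR_423, 45 without BR_417, 46 without BR_419 and 35 without BR_420, 104 without BR_418 and 196 without DR_424, and 29 of the 151 contigs passed in all 8 fits without 1 library.

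Among the contigs with a named match, 212 were tested and 57 of them, with 42 different protein names, were differentially expressed (26.9%), 51 lower and 6 higher in raiders. The median log2 fold change was -0.96 over the 212 and -1.10 over all 583 tested contigs in the authors' table. Of the 57 contigs, 11 passed in every fit without 1 library: 9 contigs of fatty acid synthase, Hexokinase-2 and D(2) dopamine receptor A. The other 46 lost the call without at least 1 library, 6 of them in each of the 8 fits, with adjusted p of 0.0501 to 0.167 where it was lost. The fit with the replicate block kept 23 of the 57 and lost 34.

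**Figure D1:**
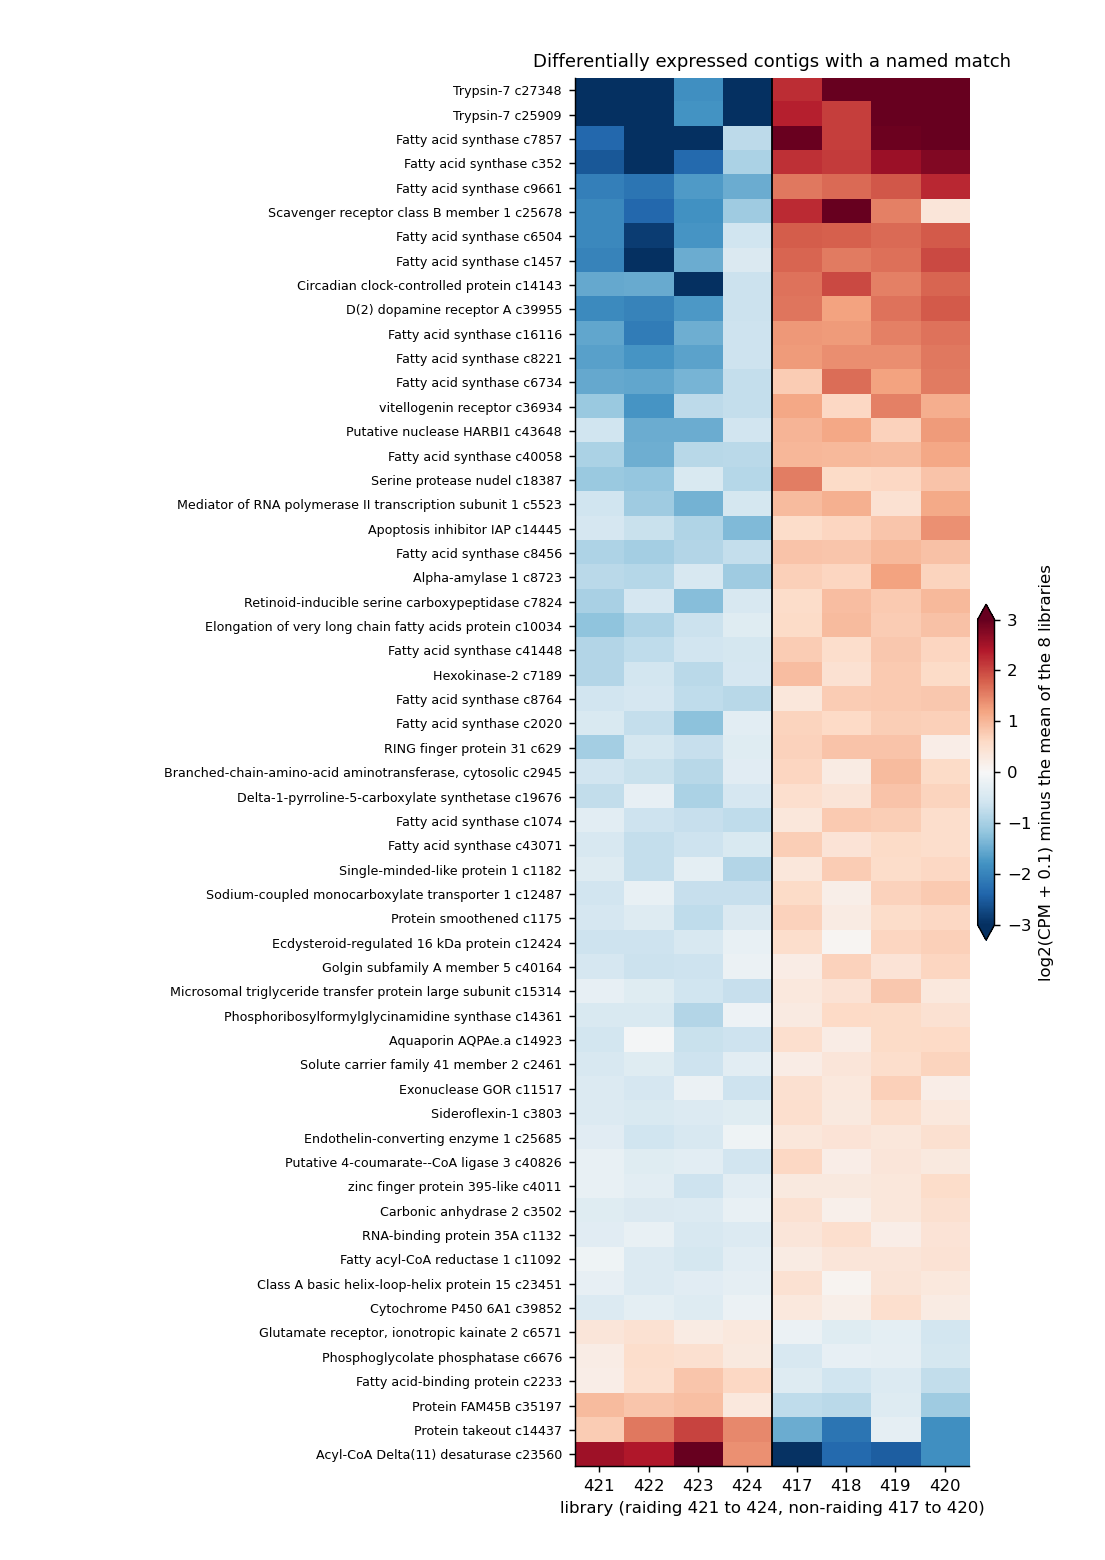
The 57 differentially expressed contigs with a named match (rows, with contig number) in the 4 raiding libraries (left of the line) and the 4 non-raiding libraries (right). Colour is log2(CPM + 0.1) minus the mean of the 8 libraries and is limited to 3 in both directions, with 51 rows lower and 6 higher in raiding libraries.

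Fatty acid synthase, the enzyme that assembles long-chain fatty acids, gave the largest group. All 19 contigs with this match had a negative log2 fold change (median -2.75), and 15 of them fell in raiding workers (78.9%, beside 26.9% of all named contigs). These 19 contigs summed to 497, 455, 499 and 658 CPM in raiding libraries, against 2070, 2140, 2255 and 2345 CPM in non-raiding libraries. Any synthase contig that the study did not call carries no name here and is missing from the sum. The means were 527 ± 89.2 CPM in raiders and 2203 ± 122 CPM in non-raiders (SD, n = 4 each), a 4.18-fold higher sum in non-raiders. The phenotypes did not overlap for 18 of the 19 contigs (94.7%), beside 85.4% of all tested contigs with a named match, which the study had called on these libraries.

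The contig with the smallest p of all, c8456, had 145, 137, 151 and 168 CPM in raiding libraries, against 507, 498, 542 and 512 CPM in non-raiding libraries. It fell during raiding (log2 fold change -1.77, SE 0.08, adjusted p = 0.000168). The next in abundance, c8221, had 53.3, 48.3, 54 and 108 CPM in raiding libraries, against 403, 438.9, 435.2 and 493 CPM in non-raiding libraries. It also fell (log2 fold change -2.75, SE 0.26, adjusted p = 0.00708), and DR_424 had the highest level among the raiders. The same library was the highest raider in 15 of the 19 contigs, beside 25.7% of all tested contigs.

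The size of the change differed among the synthase contigs. The steepest were c7857, with 0.576, 0.172, 0.0702 and 1.91 CPM in raiding libraries against 27, 14.4, 26.2 and 30.4 CPM in non-raiding libraries (log2 fold change -5.28, SE 0.76), and c352 (-4.62, SE 0.54). The shallowest that passed were c1074 (-1.19, SE 0.13) and c43071 (-1.13, SE 0.09), which had 22.1 to 30.3 CPM and 28.7 to 34 CPM in raiders and 47.8 to 64.7 CPM and 62.6 to 78.1 CPM in non-raiders. In raiders c7857, c352 and c9661 reached at most 1.91, 4.56 and 1.11 CPM. The remaining 4 contigs had log2 fold changes of -3.18, -2.84, -2.77 and -1.10 with adjusted p of 0.144, 0.0787, 0.070 and 0.20. The number of synthase contigs that fell was 9 without BR_419 and 9 without BR_420, the lowest of the fits without 1 library, and 17 without DR_424.

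**Figure D2:**
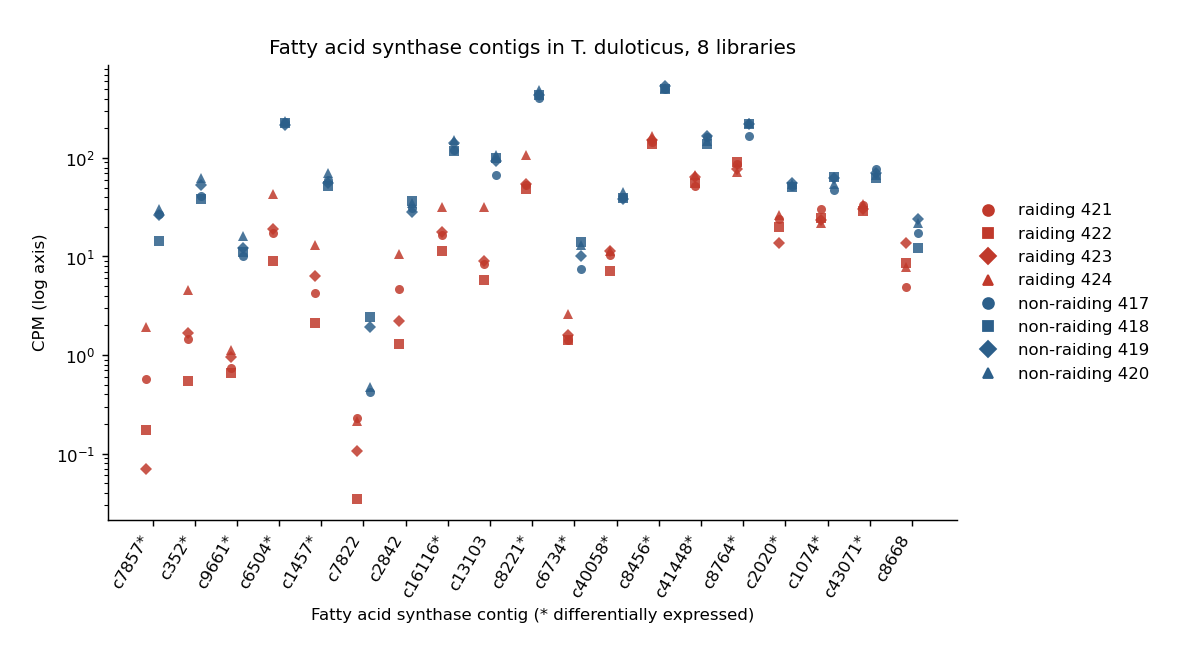
CPM on a log axis of the 19 fatty acid synthase contigs (ordered by log2 fold change, an asterisk marks the 15 that were differentially expressed) in each of the 4 raiding (red) and 4 non-raiding (blue) libraries. Raiding libraries lie below non-raiding libraries except for c8668, and DR_424 (red triangles) is the highest raider in 15 contigs.

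Enzymes that modify fatty acids downstream did not share one direction. Of 9 contigs for desaturases, elongases and fatty acyl-CoA reductases, 2 fell and 1 rose (33.3%, beside 26.9% of all named contigs, with a median of -1.01). A contig of Acyl-CoA Delta(11) desaturase, an enzyme family that places a double bond in the acyl chain and makes pheromone precursors in moths, rose in raiders. The contig, c23560, had 4.49, 4.05, 7.48 and 1.91 CPM in raiding libraries, against 0, 0.0562, 0.0413 and 0.119 CPM in non-raiding libraries. Its log2 fold change was 6.20 (SE 0.65), with an adjusted p of 0.00958 and of 0.0501 without BR_419. Another, more abundant contig of the same match, c43529, had 102, 102, 111 and 104 CPM in raiding libraries, against 62.3, 84.1, 58.9 and 60.03 CPM in non-raiding libraries, and did not pass (log2 fold change 0.66, SE 0.12, adjusted p = 0.0679).

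Elongation of very long chain fatty acids protein had 72.7, 87.9, 108 and 130 CPM in raiding libraries, against 249, 323, 283 and 306 CPM in non-raiding libraries. It fell during raiding (log2 fold change -1.54, SE 0.18, adjusted p = 0.0129, and 0.0626 without BR_420), and DR_424 was again the highest raider. Fatty acyl-CoA reductase 1 c11092, which has 3 contigs here, had 261, 217, 198 and 231 CPM in raiding libraries, against 338, 372, 368 and 385 CPM in non-raiding libraries (log2 fold change -0.69, SE 0.09, adjusted p = 0.024). Another, c39873, spanned 3.72 to 61.5 CPM in raiders and 95.3 to 245 CPM in non-raiders and did not pass (log2 fold change -2.92, SE 0.85, adjusted p = 0.202). Stearoyl-CoA desaturase 5, which desaturates saturated chains, had 4.50 to 11.3 CPM in raiders and 9.88 to 30.9 CPM in non-raiders, and its phenotypes overlapped. A Putative fatty acyl-CoA reductase contig without a read in any raiding library (at most 0.0293 CPM over the group at a floor of 3 counts) had 0.415 to 1.28 CPM in non-raiding libraries and did not pass (adjusted p = 0.0584).

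Proteins that carry or take up lipid included 3 changes among 8 tested contigs (37.5%, beside 26.9% of all named contigs, with a median of -0.93). Scavenger receptor class B member 1, which binds lipoproteins at the cell surface, had 11.6, 8.69, 12.7 and 21.1 CPM in raiding libraries, against 212, 366, 128 and 57.8 CPM in non-raiding libraries. It fell in raiders (log2 fold change -3.82, SE 0.56, adjusted p = 0.0343), but was not called without DR_421, DR_422, DR_423, BR_417 or BR_419 (adjusted p 0.0789 to 0.124), and non-raiders varied widely. The large subunit of microsomal triglyceride transfer protein, which loads lipid onto lipoproteins, fell by 0.95 (SE 0.14, adjusted p = 0.0358, passed in 0 of 8 fits without 1 library). Fatty acid-binding protein, which carries fatty acids inside cells, rose by 1.09 (SE 0.14, adjusted p = 0.0224), with 124, 154, 195 and 167 CPM in raiding libraries, against 82.9, 71.9, 82.1 and 64.8 CPM in non-raiding libraries. Pancreatic lipase-related protein 2, a lipid-splitting enzyme, had 3.96 to 55.7 CPM in raiders and 71.0 to 201 CPM in non-raiders and did not pass (adjusted p = 0.184).

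Of 8 contigs for digestive proteases and peptidases, 3 fell in raiders (37.5%, beside 26.9% of all named contigs) and the rest did not pass (median -1.57). Trypsin-7, a serine protease of the gut that cuts food protein, showed the largest fall of the named contigs that passed. The contig c27348 had 0.422, 0.103, 1.23 and 0 CPM in raiding libraries, against 21.7, 39.3, 167 and 122 CPM in non-raiding libraries. It fell (log2 fold change -7.54, SE 1.0, adjusted p = 0.0231), as did the other contig, c25909 (-6.69, SE 0.83, adjusted p = 0.0178), with 0.172 to 1.51 CPM in raiders and 23.4 to 115 CPM in non-raiders. Both missed the threshold in the fits without DR_421, DR_422, BR_419 or BR_420 (adjusted p 0.0531 to 0.10). In both contigs BR_419 and BR_420 were well above BR_417 and BR_418. Retinoid-inducible serine carboxypeptidase, a peptidase that trims protein ends, fell by 1.59 (SE 0.19, adjusted p = 0.0159). Chymotrypsin-1, another gut protease, had 24.6 to 103 CPM in raiders and 51.2 to 278 CPM in non-raiders with overlap and did not pass (adjusted p = 0.297), and Aminopeptidase N had 1 contig at -0.78 and 1 at 0.81.

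Among 9 contigs for carbohydrate use, 2 fell and 1 rose (33.3%, beside 26.9% of all named contigs, with a median of -1.37). Alpha-amylase 1, which splits starch, had 3.23, 3.09, 4.04 and 2.65 CPM in raiding libraries, against 9.41, 8.99, 13.2 and 9.08 CPM in non-raiding libraries, and fell (log2 fold change -1.64, SE 0.20, adjusted p = 0.0163). Hexokinase-2, which commits glucose to metabolism by phosphorylation, had 61.9, 78.3, 65.2 and 80.7 CPM in raiding libraries, against 216, 156, 195 and 171 CPM in non-raiding libraries. It fell by 1.37 (SE 0.13, adjusted p = 0.00732) and passed in all 8 fits without 1 library. Phosphoglycolate phosphatase, a metabolite repair enzyme, rose by 0.77 (SE 0.10, adjusted p = 0.0221), with 216 to 267 CPM in raiders and 127 to 154 CPM in non-raiders. Sorbitol dehydrogenase (-1.96), Alpha-glucosidase (-1.60), Glucose dehydrogenase (-1.42) and Trehalase, the enzyme that cleaves trehalose (-0.71), had negative fold changes without overlap but adjusted p of 0.0661 to 0.142. Protein phosphatase 1 regulatory subunit 3C, which directs a phosphatase to glycogen, had 237 to 336 CPM in raiders and 85.2 to 212 CPM in non-raiders (log2 fold change 1.12, adjusted p = 0.127).

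Genes of yolk and egg formation had 2 contigs that fell among 9 tested (22.2%, beside 26.9% of all named contigs), and the other 7 did not pass (median -1.85). Vitellogenins are yolk precursors made by the fat body, and the vitellogenin receptor takes them up into oocytes. The receptor contig c36934 had 0.653, 0.378, 0.843 and 0.901 CPM in raiding libraries, against 3.55, 2.42, 4.58 and 3.35 CPM in non-raiding libraries, and fell (log2 fold change -2.33, SE 0.34, adjusted p = 0.0327). The other receptor contigs had log2 fold changes of -2.20 and -1.94 (adjusted p = 0.133 and 0.0614), and the sum over the 3 was 12.8 ± 7.82 CPM in raiders and 53.6 ± 5.16 CPM in non-raiders (SD, n = 4 each). Serine protease nudel, which in Drosophila is needed in the eggshell to set the dorsoventral axis, had 3.54 to 5.83 CPM in raiders and 12.1 to 23.6 CPM in non-raiders and fell by 1.85 (SE 0.26, adjusted p = 0.0303).

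The yolk proteins themselves varied widely. Vitellogenin-3 had 2058, 1703, 1582 and 159 CPM in raiding libraries, against 3893, 3663, 7218 and 14172 CPM in non-raiding libraries, so the phenotypes did not overlap and DR_424 was far below the other raiders. The log2 fold change of -2.40 (SE 0.73) had an adjusted p of 0.217. Vitellogenin-6 pointed the other way, with 608, 514, 510 and 443 CPM in raiding libraries, against 334, 157, 255 and 341 CPM in non-raiding libraries (log2 fold change 0.93, SE 0.23, adjusted p = 0.136). The oogenesis genes Maternal protein exuperantia, which in Drosophila localises messenger RNA in the egg, and Poly(A) RNA polymerase gld-2-like protein A had log2 fold changes of -0.98, -0.93 and -0.96 and did not pass. Workers of both phenotypes had been selected as infertile by dissection of their ovaries.

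Of 11 contigs for takeout, isoprenoid and hormone related proteins, 10 had a negative log2 fold change and 1, a takeout contig, a positive one. Takeout-like proteins bind small lipophilic molecules such as juvenile hormone, and takeout in Drosophila acts on feeding and courtship. Protein takeout c14437 had 92.6, 166, 224 and 151 CPM in raiding libraries, against 19.4, 11.9, 45.5 and 15.3 CPM in non-raiding libraries, and rose (log2 fold change 2.78, SE 0.45, adjusted p = 0.0498). It passed in 1 of 8 fits without 1 library, the one without BR_419. Circadian clock-controlled protein c14143, a name given to members of the same family, had 79.7, 80.8, 25.6 and 146 CPM in raiding libraries, against 707, 903, 653 and 778 CPM in non-raiding libraries. It fell by 3.19 (SE 0.45, adjusted p = 0.0289), and 2 further contigs of that name had log2 fold changes of -1.25 and -0.80 and did not pass. A second takeout contig, c22007, had 2.32 to 5.88 CPM in raiders and 7.40 to 15.2 CPM in non-raiders (log2 fold change -1.55, adjusted p = 0.0964), opposite in sign to the first. Ecdysteroid-regulated 16 kDa protein, named for its response to the moulting hormone in moths, fell by 0.99 (SE 0.15, adjusted p = 0.0451). The nuclear receptor HR38 (-1.19) and the contig listed as Krueppel-like proteinous protein 1 (-1.28) had adjusted p of 0.111 and 0.0783. In all, 3 of 11 contigs of this list changed (27.3%, beside 26.9% of all named contigs, with a median of -1.25).

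**Figure D3:**
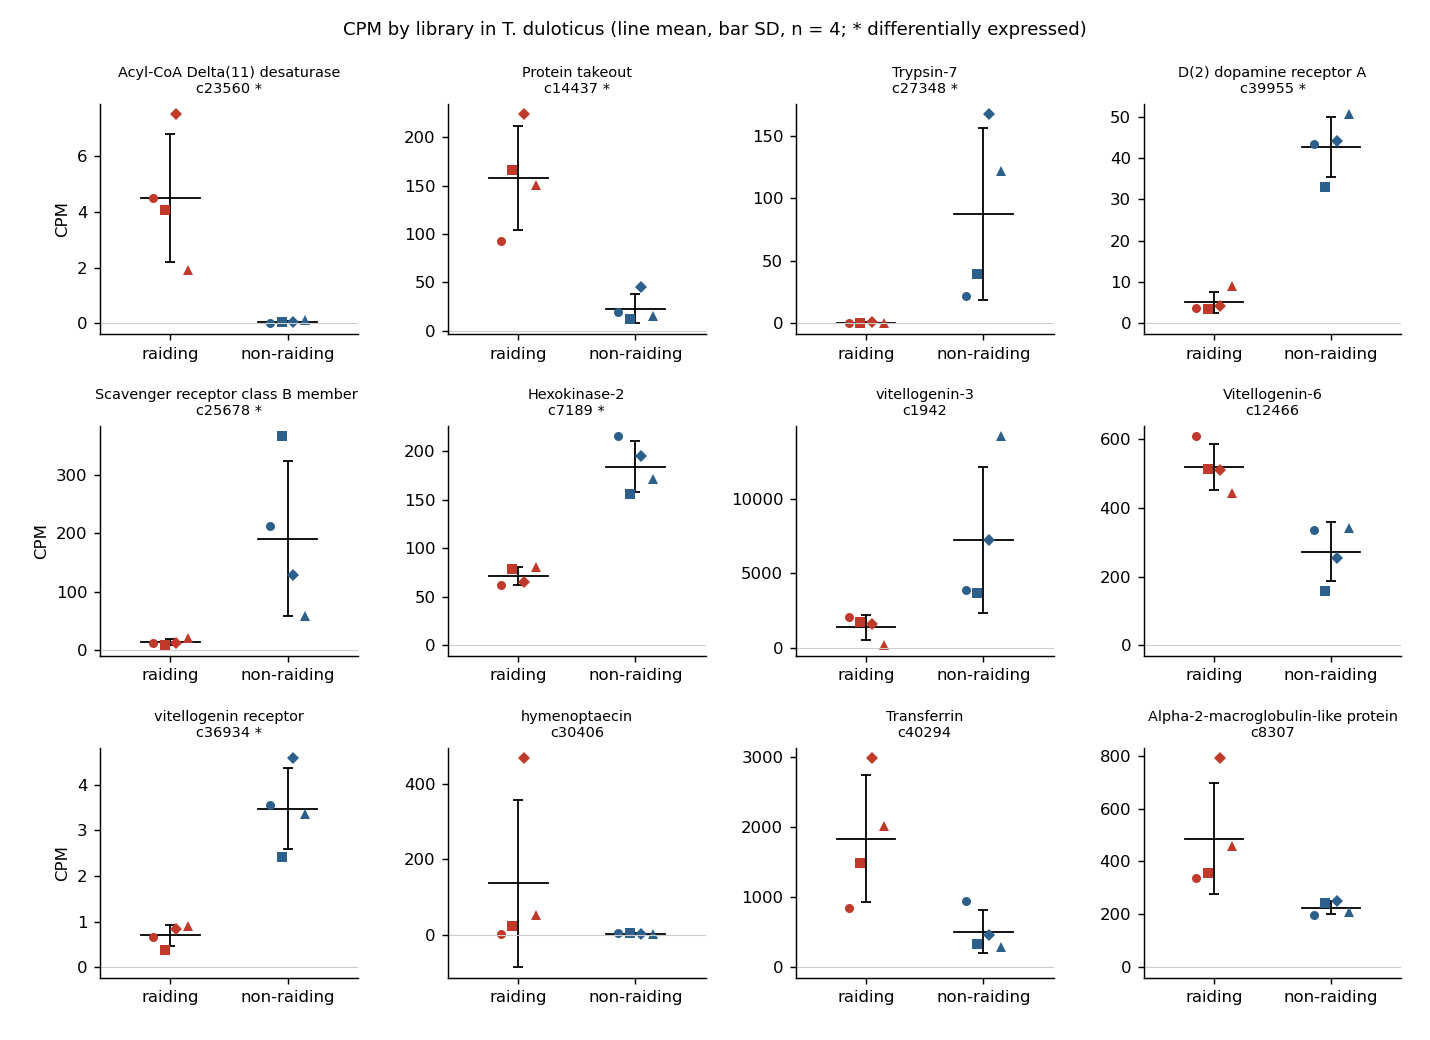
CPM of 12 contigs in each library, raiding left (red) and non-raiding right (blue), each panel with its own linear axis. Lines are means and bars are SD (n = 4), and an asterisk marks contigs with an adjusted p under 0.05. The hymenoptaecin panel shows 1 raiding library (DR_423) far above the others, and the vitellogenin-3 panel shows DR_424 below the other raiders.

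Immune proteins had large but uneven values. Hymenoptaecin, an antimicrobial peptide of bees and ants, had 3 contigs with 56.2 to 1228 CPM in sum in raiding libraries DR_422 to DR_424 and 4.61 CPM in DR_421, against 4.21 to 8.61 CPM in non-raiding libraries. The contig c30406 had 1.27, 23.7, 469 and 51.1 CPM in raiding libraries, against 3.83, 3.51, 2.27 and 1.87 CPM in non-raiding libraries, so the phenotypes overlapped through DR_421. The log2 fold changes of 5.59, 5.60 and 6.06 had standard errors of 1.48 to 1.53 and adjusted p of 0.140 to 0.176. Transferrin, an iron carrier that rises in insect infection, had 842, 1484, 2987 and 2015 CPM in raiding libraries, against 949, 336, 457 and 292 CPM in non-raiding libraries (log2 fold change 1.85, SE 0.47, adjusted p = 0.149). Alpha-2-macroglobulin-like protein 1, a protease trap, had its highest value in the same library as hymenoptaecin and transferrin, with 338, 355, 791 and 460 CPM in raiding libraries, against 197, 242, 250 and 210 CPM in non-raiding libraries (log2 fold change 1.11, SE 0.26, adjusted p = 0.124). The immune contig that passed, RING finger protein 31 c629, a ubiquitin ligase of immune signalling in mammals, fell by 1.32 (SE 0.20, adjusted p = 0.0351). Techylectin-5B, Hemolymph lipopolysaccharide-binding protein and a second RING finger protein 31 contig, c17447, did not pass. Their raiding means were 0.316, 0.526 and 0.419 of the non-raiding means. Over the 9 contigs of the list the median was 1.11, with 0 higher and 1 lower by the quasi-likelihood test (11.1%, beside 26.9% of all named contigs). Log2 fold changes were positive for 5, of which 3 were hymenoptaecin, and negative for 4. The phenotypes did not overlap for 44.4% of the list, beside 85.4% of all named contigs. At an unadjusted p under 0.05, by the likelihood ratio test and by DESeq2, 5 were higher. Those 5 are no separate support, since the study named contigs it had called on these libraries. Of all 212 tested named contigs, 201 passed by the likelihood ratio test and 207 by DESeq2.

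Receptors, channels and synaptic proteins had 7 positive and 7 negative log2 fold changes among 14 contigs, with 1 that fell and 1 that rose (14.3%, beside 26.9% of all named contigs). D(2) dopamine receptor A, named for a G-protein coupled receptor of the transmitter dopamine, had 3.69, 3.47, 4.25 and 8.96 CPM in raiding libraries, against 43.4, 32.9, 44 and 50.5 CPM in non-raiding libraries. It fell (log2 fold change -3.08, SE 0.32, adjusted p = 0.00907) and passed in all 8 fits without 1 library. Glutamate receptor, ionotropic kainate 2, a channel opened by the transmitter glutamate, had 44.5, 47.8, 41.5 and 43.1 CPM in raiding libraries, against 31, 26.9, 28.5 and 23.7 CPM in non-raiding libraries. It rose by 0.69 (SE 0.10, adjusted p = 0.0326), a call that was lost in each fit without 1 library (highest adjusted p = 0.104). The kainate 1 contigs had log2 fold changes of 0.65 and 0.88 (adjusted p = 0.0699 and 0.0889), without overlap between phenotypes. The light-signalling proteins Transient receptor potential protein and Neither inactivation nor afterpotential protein C, which act in the photoreceptors of Drosophila, had 2.49 and 0.84 with adjusted p of 0.175 and 0.0622. The subunit alpha-2/delta of a voltage-dependent calcium channel had 9.44 to 19.4 CPM in raiders and 2.75 to 6.38 CPM in non-raiders (log2 fold change 1.90, SE 0.33, adjusted p = 0.0614).

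**Figure D4:**
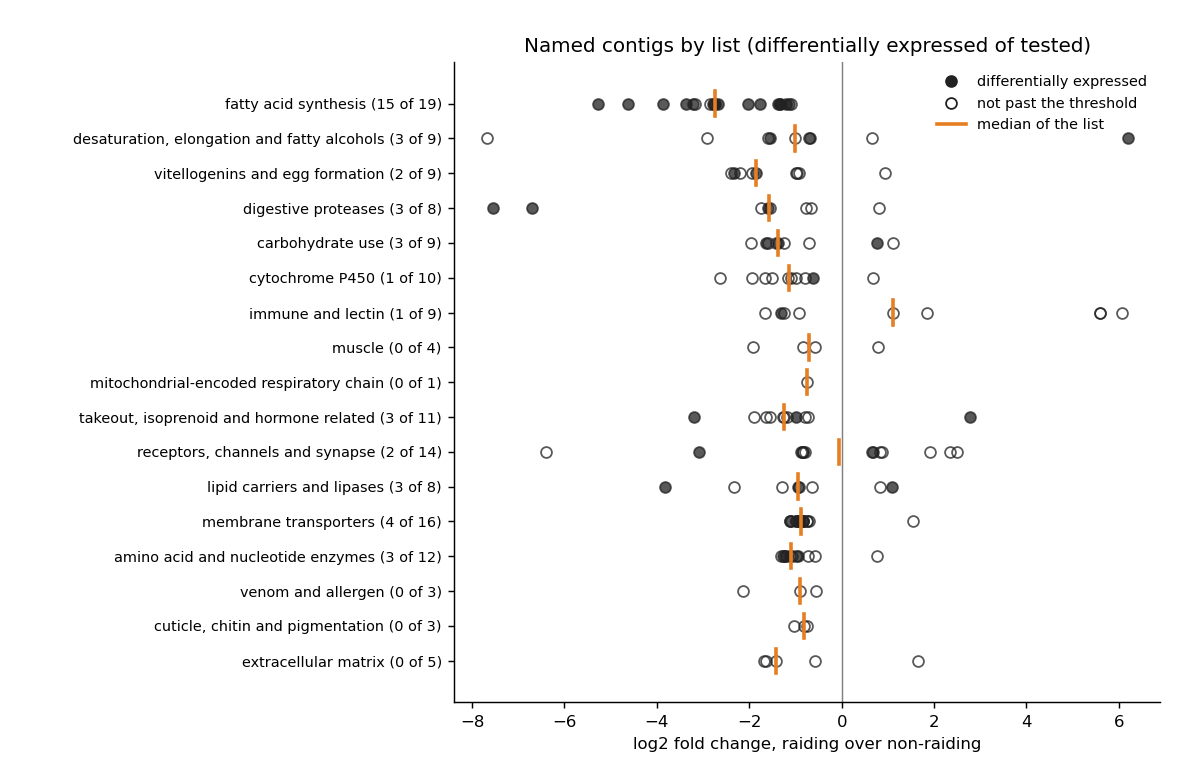
Log2 fold change (raiding over non-raiding) of named contigs in 17 lists by protein name, with the number differentially expressed of those tested in brackets, filled points for differentially expressed contigs and an orange bar for the median of the list. Fatty acid synthesis has 15 of 19 contigs past the threshold, all below 0, and immune proteins have the one median above 0 (1.11). The immune list holds 3 hymenoptaecin contigs among its 9.

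Among 16 membrane transporter contigs 4 fell and the others did not pass (25%, beside 26.9% of all named contigs, and median -0.88, beside -0.96): Sodium-coupled monocarboxylate transporter 1 by 1.10 (SE 0.16), the water channel Aquaporin AQPAe.a by 0.93 (SE 0.15), the magnesium carrier Solute carrier family 41 member 2 by 0.89 (SE 0.11) and Sideroflexin-1, a mitochondrial carrier, by 0.83 (SE 0.10). Their adjusted p were 0.0343, 0.0498, 0.0191 and 0.0175. Of 12 contigs for amino acid and nucleotide enzymes 3 fell, again 25% (median -1.09). These were a cytosolic branched-chain aminotransferase (-1.23, SE 0.17), Delta-1-pyrroline-5-carboxylate synthetase, which makes a precursor of proline (-1.20, SE 0.16), and Phosphoribosylformylglycinamidine synthase of purine synthesis (-0.95, SE 0.15), with adjusted p of 0.0278, 0.0252 and 0.0457.

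Cytochrome P450 enzymes, which oxidise hormones, lipids and toxins, had 9 negative log2 fold changes among 10 contigs (median -1.13). Of these, 1 contig (10%, beside 26.9% of all named contigs), Cytochrome P450 6A1 c39852, fell (log2 fold change -0.63, SE 0.09, adjusted p = 0.0336). The sum over the 10 named contigs was 507, 475, 474 and 486 CPM in raiding libraries, against 988, 607, 913 and 861 CPM in non-raiding libraries. Putative cytochrome P450 6a20 stood on the other side, with 88.3 to 150 CPM in raiders and 66.8 to 81.3 CPM in non-raiders (log2 fold change 0.68, adjusted p = 0.118). No contig passed in the lists for muscle (4 tested), extracellular matrix (5), venom and allergen (3), cuticle and pigmentation (3) and the mitochondrial-encoded respiratory chain (1) with edgeR's quasi-likelihood test. Of these 16 contigs, 16 had an unadjusted p under 0.05 (2 higher and 14 lower in raiders), 15 passed by the likelihood ratio test and 16 by DESeq2. Contigs carry a name only where the study called them on these same libraries, so these counts are no separate support. Of all 212 tested contigs with a named match, 201 passed by the likelihood ratio test and 207 by DESeq2. Of the 4 muscle contigs, 3 had a negative and 1 a positive log2 fold change (median -0.71). Among the negative ones, troponin C, the calcium switch of contraction, had 17.9 to 170 CPM in raiders and 214 to 371 CPM in non-raiders (adjusted p = 0.216). The positive one, the M-line protein unc-89, had 618 to 834 CPM in raiders and 357 to 517 CPM in non-raiders (adjusted p = 0.0696).

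Further contigs outside these lists fell in raiders, of which 13 have a named match. Putative nuclease HARBI1, derived from a transposase, had 59.6, 32.4, 32.3 and 60.8 CPM in raiding libraries, against 184, 203, 146 and 220 CPM in non-raiding libraries (log2 fold change -2.03, SE 0.25, adjusted p = 0.0178). Mediator of RNA polymerase II transcription subunit 1 (-1.78, SE 0.22), which links transcription factors to the polymerase, also fell and followed a like order of libraries, with BR_420 highest and BR_419 lowest among non-raiders. The inhibitor of apoptosis protein IAP (-1.78, SE 0.28), Protein smoothened, the signal transducer of the Hedgehog pathway (-1.05, SE 0.12), and the transcription factors Single-minded-like protein 1 (-1.13, SE 0.16) and Class A basic helix-loop-helix protein 15 (-0.64, SE 0.10) fell as well. The other 7, among them Golgin subfamily A member 5, Endothelin-converting enzyme 1 and Carbonic anhydrase 2, had log2 fold changes of -0.98 to -0.72. The contig of this kind that rose, Protein FAM45B c35197, had 36.3, 33.8, 35.5 and 23.6 CPM in raiding libraries, against 11, 10.8, 14.5 and 8.99 CPM in non-raiding libraries (log2 fold change 1.51, SE 0.18, adjusted p = 0.0175). The named contigs nearest to the threshold were Protein takeout and Aquaporin AQPAe.a just inside (adjusted p = 0.0498 each) and Isovaleryl-CoA dehydrogenase just outside (adjusted p = 0.0513).

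Contigs matched to proteins without a name made up 46 of the 151, 35 lower and 11 higher in raiders. Some fire ant (Solenopsis invicta) proteins recurred. SINV_16202 was the match of 5 contigs, SINV_13311 of 3 and SINV_14578 of 3, and all of these contigs fell (log2 fold changes -4.85 to -1.15). The most abundant, SINV_13311 c14071, had 51.6, 35.2, 67.9 and 161 CPM in raiding libraries, against 649, 630, 620 and 722 CPM in non-raiding libraries, with DR_424 highest among the raiders as for fatty acid synthase. Over all 118 contigs that fell, DR_424 was the highest raider in 67 (56.8%).

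Among the contigs that rose, DR_424 was the highest raider in 1 of the 33 (3.03%), DR_423 in 15 and DR_421 in 12. SINV_03318 had the largest rise, with 35, 3.5, 27.4 and 11.8 CPM in raiding libraries, against 0, 0, 0 and 0.356 CPM in non-raiding libraries (log2 fold change 7.72, SE 1.18, adjusted p = 0.0393), and passed in 1 of 8 fits without 1 library. SINV_15708 rose by 1.51 (SE 0.11, adjusted p = 0.00238), with 159 to 214 CPM in raiders and 60.3 to 70.9 CPM in non-raiders, and passed in all 8. Among the contigs without a match, the smallest p belonged to c17147 and c12222 on the lower side (log2 fold change -3.01, SE 0.26, and -2.62, SE 0.28) and to c42612 and c13585 on the higher side (3.93, SE 0.39, and 2.37, SE 0.25). Among the unmatched contigs, 3 had no read in any raiding library, and the most abundant of them, at 1.69 to 4.26 CPM in non-raiding libraries, was at least 108-fold lower in raiders against a floor of 3 counts over the group.

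The other slavemakers were set beside T. duloticus for the 42 protein names of its changed contigs, with 7 libraries kept by the study in each species. In T. americanus 16 of these names were tested and 11 had a contig that changed, 10 in the direction of T. duloticus and 1, Circadian clock-controlled protein, in the other. In T. pilagens 26 were tested and 22 had a contig that changed, 17 in the same direction, 4 in both directions and 1, Endothelin-converting enzyme 1, in the other. Further contigs of Circadian clock-controlled protein in T. americanus and of Endothelin-converting enzyme 1 in T. pilagens had the sign of T. duloticus and did not pass. These names exist where the study called contigs in each species, so the shares are a description and differences between species were not tested. For comparison, whatever the name, 325 of 40389 contigs passed in T. americanus (0.805%), 170 of them higher in raiders. In T. pilagens 1105 of 38402 passed (2.88%), 361 of them higher. Calls in T. pilagens were thus mostly lower, as in T. duloticus, so a direction can be shared there without a link by name. Hymenoptaecin contigs, at 5.59 to 6.06 in T. duloticus, had log2 fold changes of -6.20 and -5.99 in T. americanus and -2.71 in T. pilagens (SE 1.12 to 2.30), and none of them passed. For fatty acid synthase, 10 of 19 T. pilagens contigs fell and 1 rose, against 15 and 0 of 19 in T. duloticus. The T. pilagens contigs that did not pass had log2 fold changes of both signs, from -1.38 to 1.55, while all 19 were negative in T. duloticus. T. americanus had no tested contig of this name. D(2) dopamine receptor A had no tested contig of that name in either species here. Trypsin-7 had 2 contigs in each, which did not pass the filter on low counts. Each of them had 0 to 3 reads in the raiding libraries, against 160 to 464 reads in 1 non-raiding library (BR_436 of T. americanus and BR_683 of T. pilagens) and 0 to 14 reads in the other non-raiding libraries.

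**Figure D5:**
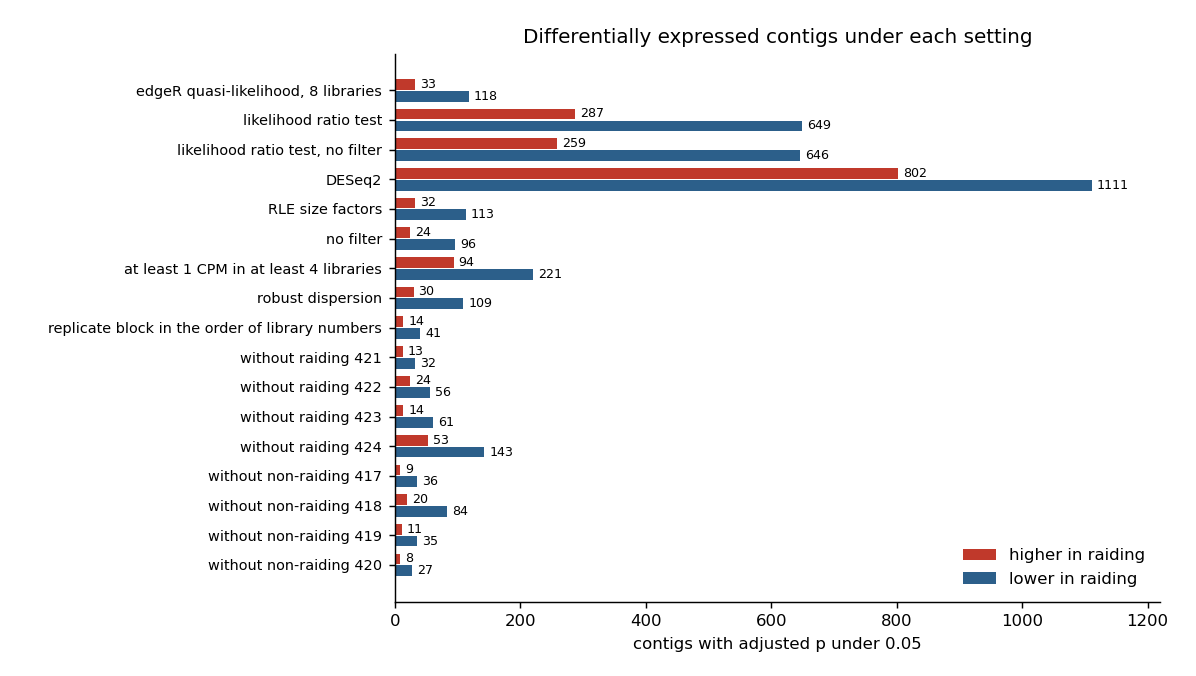
Number of differentially expressed contigs (adjusted p under 0.05) that were higher (red, upper bar) or lower (blue, lower bar) in raiding T. duloticus under the edgeR quasi-likelihood test with all 8 libraries (33 and 118), 8 other settings (with libraries matched in the order of their numbers as a replicate block among them) and 8 fits without 1 library. Lower contigs outnumber higher ones in every setting shown.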

How the data were processed

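RNA of whole T. duloticus workers was sequenced in 8 pooled libraries. The authors trimmed the reads, mapped them to a transcriptome assembled for the species and deposited whole-number counts of reads per contig, without normalization. Tools listed by the submitters are Bowtie, TopHat2 2.0.13, Trimmomatic and FastQC, while the methods give eXpress for counting and edgeR for testing. The authors' columns of fold changes and p-values, and 32 further columns of whole numbers in later blocks of the table, were not used. Mite matches (4 contigs) were left out.

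Raiding and non-raiding libraries were compared with edgeR 4.0.16 (limma 3.58.1, R 4.3.3): filterByExpr at a minimum count of 10, TMM scaling (factors 0.988 to 1.03), quasi-likelihood test and Benjamini-Hochberg adjustment at 0.05. CPM use the scaled library sizes. The SE is the absolute log2 fold change over the square root of F. The biological coefficient of variation was 0.464. Alternatives were DESeq2 1.42.0, the edgeR likelihood ratio test (filtered or unfiltered), RLE size factors, the quasi-likelihood test without a filter, at least 1 CPM in at least 4 libraries, robust dispersion, each library left out and, added after seeing the data, a replicate block by order of library number. The code was tested on simulated data.

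For a group without a read, 3 counts summed over its libraries served as the floor, and intervals and floors cover counting error only. Members of 17 lists were found by protein name. The text names the differentially expressed contigs with a named match, other members of these lists as values, and of contigs without a match the 2 of smallest p in each direction. A few further contigs were picked after their values were seen. The species, the lists and the named contigs were chosen with earlier results of these data known.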

Additional observations from a re-analysis of the deposited data

Results flagged for a closer look

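Among 132 groups of 4 libraries, 6 held a library far from the other 3 by Dixon's test, which chance alone gives in about 1 of 20 groups. Vitellogenin-3 c1942 had 159 CPM in raiding library DR_424, against 1582 to 2058 CPM in the other raiding libraries. The same library had 108 CPM of Fatty acid synthase c8221, against 48.3 to 54 CPM in the other raiders, and 23.6 CPM of Protein FAM45B c35197, against 33.8 to 36.3 CPM. Among non-raiding libraries, BR_417 had 166 CPM of Fatty acid synthase c8764 (220 to 227 CPM in the others), BR_418 had 84.1 CPM of Acyl-CoA Delta(11) desaturase c43529 (58.9 to 62.3 CPM) and BR_419 had 13.2 CPM of Alpha-amylase 1 c8723 (8.99 to 9.41 CPM).

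For 5 proteins with a single contig in each species compared, the raiding and non-raiding libraries were without overlap both in T. duloticus and in another slavemaker, with opposite signs, and the difference between species was not tested. The log2 fold change of 15-hydroxyprostaglandin dehydrogenase was -0.7385 in T. duloticus and 3.525 in T. americanus. Its T. pilagens contigs c8038 (-0.7087) and c14311 (-0.5733) had the sign of T. duloticus and passed. Sorbitol dehydrogenase had -1.958 in T. duloticus and 2.179 in T. americanus, while the T. pilagens contig (-0.7417) had the sign of T. duloticus and passed. Pancreatic lipase-related protein 2 had -2.333 in T. duloticus and 0.9017 in T. pilagens, and Splicing factor 4 had -1.132 in T. duloticus and 0.6407 in T. pilagens. Retinol dehydrogenase 11 had -0.8327 in T. duloticus, 1.438 in T. americanus and 0.4923 in T. pilagens. None of these 5 passed the test in T. duloticus. In edgeR's test, 15-hydroxyprostaglandin dehydrogenase of T. americanus (adjusted p = 0.0679) and Pancreatic lipase-related protein 2 of T. pilagens (adjusted p = 0.064) did not pass either. Proteins with several contigs also had opposite signs without overlap, and which contigs correspond between species was not determined. Endothelin-converting enzyme 1 c25685 had -0.77 in T. duloticus and c2039 had 0.621 in T. pilagens, and Circadian clock-controlled protein c14143 had -3.19 in T. duloticus and c6734 had 1.19 in T. americanus, each past the test in its species. Other contigs of these names had the sign of T. duloticus. For Endothelin-converting enzyme 1 these were c7911 (-0.79) and c17274 (-0.56) of T. pilagens and c11267 (-0.745) of T. americanus, none past the test. For Circadian clock-controlled protein, c11557 of T. americanus (-1.30) did not pass and c1210 of T. pilagens (-2.37) did, while c8204 of T. pilagens (0.82) rose. Nose resistant to fluoxetine protein 6 c16846 (2.44) did not pass in T. duloticus, while c9508 of T. americanus (-1.27) and c8929 of T. pilagens (-0.88) did.

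Contigs matched to house dust mite, left out above, held 907 reads in non-raiding library BR_420, 1 read in BR_419 and 0 in the other 6 libraries, the 4 raiding ones included.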

How the results depend on the processing

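The number of differentially expressed contigs (151, of which 21.9% were higher in raiders) was 936 (30.7% higher) by the edgeR likelihood ratio test, 905 by that test without the filter, 1913 (41.9% higher) by DESeq2 and 315 (29.8% higher) with at least 1 CPM in at least 4 libraries. All 151 contigs were among the 936 and the 905, and 148 were among the 1913 and among the 315. It was 145 with RLE size factors, 120 without the filter and 139 with robust dispersion. Leaving out 1 library gave 35 to 196 contigs, with 18.7 to 30% higher. The cause of these differences was not tested.

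The direction of the 57 named contigs did not reverse in any of the 16 alternatives. Over the alternatives their calls were kept 614 times and lost 298 times, and calls lost by leaving out 1 library had adjusted p of 0.0501 to 0.167. The median log2 fold change of receptors, channels and synaptic proteins (-0.07) lay between -0.1 and 0.0194 with 1 library left out and was above 0 without BR_418 (0.0194) or DR_423 (0.00154). That of venom and allergen proteins (-0.91) lay between -1.05 and -0.75.

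The labels give the phenotypes no shared replicate numbers, and the sources used here do not say which libraries share colonies. A fit with a replicate block that matched libraries in the order of their numbers, chosen after seeing the data, called 55 contigs (25.5% higher), 44 of them among the 151. It kept 23 of the 57 named contigs, 10 of fatty acid synthase included, and lost 34 (adjusted p 0.0502 to 0.155). Deviations from the means of each phenotype correlated at 0.0555 to 0.12 in the 4 matched pairs and at -0.0629 to 0.0185 in the others. Every library thus correlated best with its match, which is a hint, and the methods do not state that these libraries share colonies. At the depth of these libraries, contigs with few reads were not tested, and the named contigs were limited to those that the study itself called.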

Other observations

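Contigs with the best match in a fungus (4 contigs) held 10, 30, 11 and 10 reads in raiding libraries, against 78, 111, 1090 and 145 reads in non-raiding libraries, with most in BR_419. A contig matched to a bacterium held 10 reads in DR_422, 60 in DR_423 and 0 in the other libraries.

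The phenotypes share colonies, but the sources used here do not say which libraries. Each non-raiding library had its highest Spearman correlation with a raiding library at DR_421 for BR_417 (0.858), DR_422 for BR_418 (0.874), DR_423 for BR_419 (0.877) and DR_424 for BR_420 (0.867). DR_421 itself was more correlated with BR_419 (0.866), but once the mean of each library was taken out, these same pairs were the highest for both of their libraries (0.00656, 0.00949, 0.00828 and 0.00506). The differences are small and are given as a description, without a test.

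Protein FAM45B had a further contig, c13799, with 17.6, 14.6, 16.7 and 7.74 CPM in raiding libraries, against 3.5, 2.58, 6.13 and 2.52 CPM in non-raiding libraries, which did not pass (log2 fold change 1.94, SE 0.36, adjusted p = 0.0699). Both contigs of this name were lowest among raiders in DR_424.

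Contigs named Nose resistant to fluoxetine protein 6 had their highest level in DR_423, as hymenoptaecin did. The contig c16846 had 7.41, 4.84, 32.1 and 11.1 CPM in raiding libraries, against 3.22, 1.52, 3.44 and 2.05 CPM in non-raiding libraries (log2 fold change 2.44, SE 0.59, adjusted p = 0.134) and did not pass. Ejaculatory bulb-specific protein 3, a name of the chemosensory protein family, had 1.15, 0.927, 3.19 and 0.689 CPM in raiding libraries, against 1.66, 51.1, 1.82 and 1.66 CPM in non-raiding libraries, so its log2 fold change of -3.22 (SE 1.28, adjusted p = 0.347) came with a single high library, BR_418.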
